A study of Mus musculus with 207 samples.

Results

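Glucose metabolism of the islet beta cell was followed through 43 genes of glycolysis, the pyruvate dehydrogenase complex, the citrate cycle and the carriers and enzymes that move reducing equivalents and carbon across the mitochondrial membrane. The members were chosen by name from these pathways, by a rule with no threshold on a measured value but with earlier results of these data known, and all 43 had a row in an expression table of 44448 genes. Old cells came from the islets of male mice aged 26 months (69 cells) and young cells from the islets of male mice aged 3 months (138 cells). All 207 cells are labelled as beta cells. The sources used here do not give strain, genotype or number of animals, and they name no treatment for either age. Single cells were caught on a Fluidigm C1 microfluidic chip, their RNA was copied and amplified with SMARTer chemistry, and libraries were made with Nextera XT.

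A beta cell senses glucose by burning it: glycolysis turns glucose into pyruvate, mitochondria oxidise the pyruvate in the citrate cycle, and the ATP that results closes potassium channels and sets off insulin release. Beta cells are known for making little lactate dehydrogenase and little of the monocarboxylate carrier that would take lactate or pyruvate across the plasma membrane. NADH made in the cytosol is handed to the mitochondria by the malate-aspartate and glycerol phosphate shuttles. Pyruvate carboxylase refills the cycle and citrate, malate and isocitrate leave the mitochondria to make NADPH and acetyl-CoA in the cytosol.

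The values are TPM, transcript counts scaled by transcript length and to a total of 1000000 in every cell, so levels of different genes can be set side by side and read depth is unknown. No label ties a cell to an animal. Each age therefore counts as 1 sample, the difference between the ages has no replicate check, and no p-value is given. An error is the SD between cells, with n = 69 old and 138 young cells throughout. Intervals of shares of cells are 95% Clopper-Pearson intervals and cover counting error only. Detection in a cell means a value of at least 1 TPM.

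Old cells had a median of 4078 detected genes and young cells 4291.5. Of the beta cell markers, Ins1, Ins2, Iapp and G6pc2 were detected in every cell. Ucn3 and Slc30a8 were each detected in 98.6% of old and 100% of young cells, and Slc2a2, the glucose transporter, in 89.9% of old and 89.9% of young cells. Nkx6-1 was detected in only 52.2% of old and 60.1% of young cells and Pdx1 in 43.5% of cells at both ages. Mafa was near 0 (0.395 and 0.0239 TPM). Another islet hormone (Gcg, Sst, Ppy or Pyy) reached 1000 TPM in 7 of 69 old and 0 of 138 young cells. Summed TPM of 5 macrophage markers reached 3566 in old and 13725 in young cells, with a median of 0 at both ages and with 1 old and 10 young cells at 100 TPM or above (cell 162 of the old cells). Along the cell numbers the libraries fell into 8 runs that differ in detected genes, mitochondrial RNA and the nuclear noncoding RNA Malat1. In old cells the runs end at cells 158, 190, 199 and 207 (beginning at cell 139), and in young cells at cells 39, 54, 86 and 138. Since each run holds cells of 1 age, the run and the age cannot be told apart. Cells 1 to 54, 159 to 190 and 200 to 207 have little mitochondrial rRNA and tRNA (0.264% of TPM in 40 old and 0.373% in 54 young cells) and are called the low kind below. The others form the high kind (2.24% in 29 old and 1.28% in 84 young cells). Values within each kind are given beside those over all cells.

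Together the 43 genes made up little of the RNA of a cell. Their summed TPM was 3040.5 ± 2339 in old and 2604 ± 1658 in young cells, which is 0.304% and 0.260% of all TPM. Ins1 and Ins2 alone took a median of 51.7% of TPM in old and 54.5% in young cells. Of the TPM left after insulin, the members took a median of 0.538% in old cells, against 0.503% in young cells. The lowest, median and highest summed TPM of a cell were 251, 2484 and 11796 in old cells, against 222, 2290.4 and 9567 in young cells, so the ages overlapped over nearly their whole range.

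The values of single cells overlapped between the ages for every member, and the lowest value was 0 TPM at both ages for all members but Acly, Pkm, Aldoa and Mdh2. A group of 5 members was found in nearly every cell. Acly, ATP citrate lyase, which splits exported citrate into acetyl-CoA and oxaloacetate, was detected in all 207 cells. It had 35.2, 217 and 1131 TPM at the lowest, median and highest in old cells, against 8.19, 245 and 1210.4 TPM in young cells. Pkm, pyruvate kinase, which makes pyruvate and ATP in the last step of glycolysis, was detected in 100% of old and 98.6% of young cells. Its lowest, median and highest values were 1.07, 71.7 and 585 TPM in old cells, against 0.590, 69.2 and 497 TPM in young cells. The aldolase Aldoa and the malate dehydrogenases Mdh2 (mitochondrial) and Mdh1 (cytosolic) completed the group detected in at least 90% of all cells. Of the 43 genes, 9 averaged 100 TPM or more over all cells, 20 were detected in at least 50% of cells, and 23 had a median under 1 TPM. A median under 1 TPM does not show that the transcript is absent, since the depth of a cell is unknown and the number of members detected in a cell followed its number of detected genes (Spearman's rho 0.71 over 69 old and 0.76 over 138 young cells, points that share a library total).

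**Figure D1:**
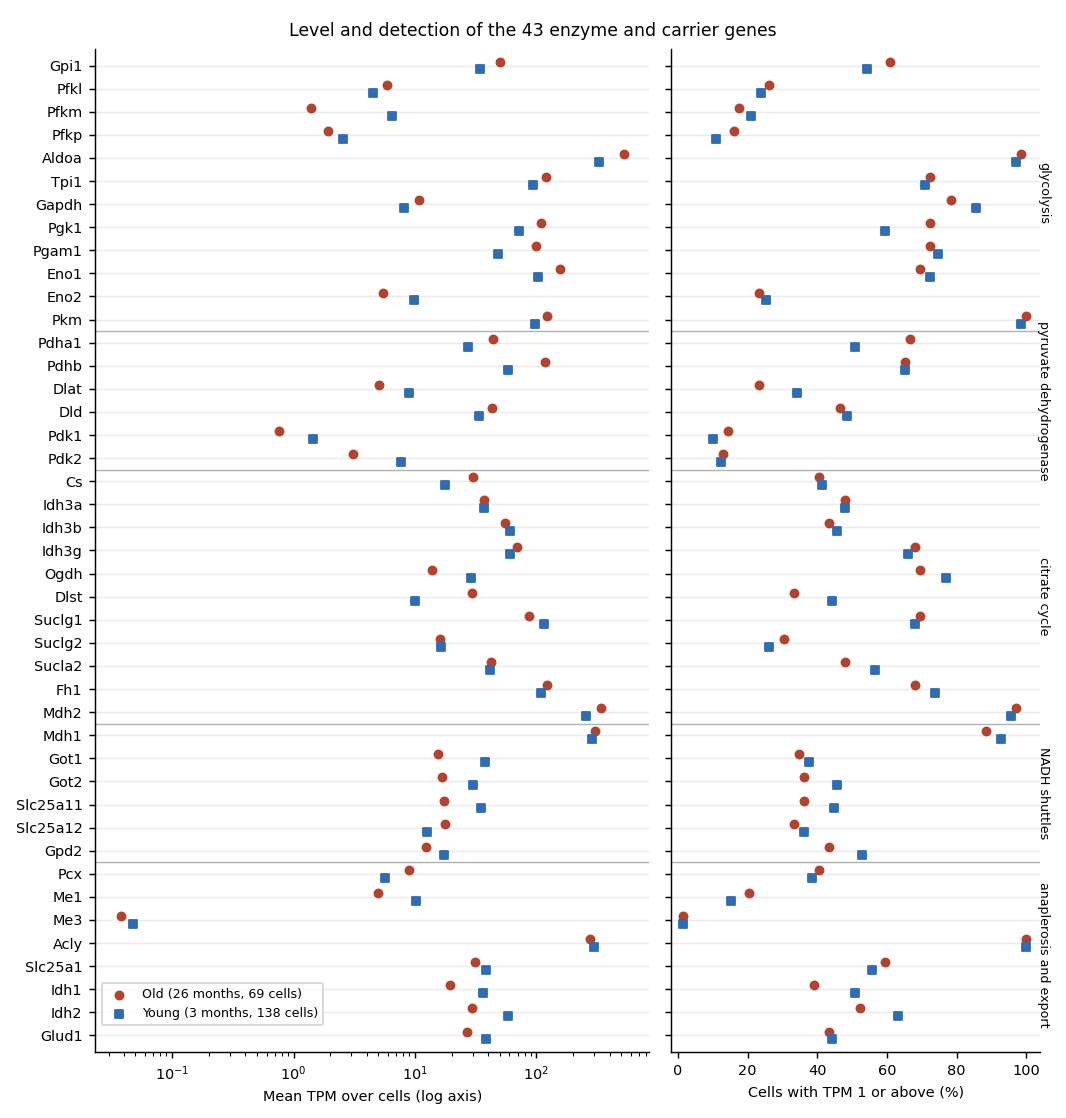
Mean TPM over cells on a log axis (left) and percentage of cells with TPM 1 or above (right) for the 43 genes, grouped by role; circles are old cells (n = 69) and squares young cells (n = 138). Aldoa, Mdh2, Mdh1 and Acly are at the right of both panels, while the phosphofructokinases, the pyruvate dehydrogenase kinases, Me1 and Me3 are at the left.

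As a whole the members did not lean to either age by size. Of the 42 members with a mean of 1 TPM or more at either age, 9 were at least 1.5-fold higher in old cells, 11 at least 1.5-fold lower, and 22 lay between. Among all 12155 genes past the same minimum, 16.8% were that much higher and 26.4% that much lower, against 21.4% and 26.2% of the members. The log2 ratio of old over young means (with 1 TPM added to each mean, which understates the difference of low genes) had a median of 0.01 over the members and -0.10 over all genes. By role the median log2 ratio was 0.38 for 12 glycolytic genes, -0.06 for 6 pyruvate dehydrogenase genes, 0.03 for 11 citrate cycle genes, -0.64 for 6 shuttle genes and -0.50 for 7 measured genes of anaplerosis and export. For glycolysis it was 0.34 within low-kind and -0.09 within high-kind runs, and -0.03 without old cells 159 to 190. For the citrate cycle it was -0.04 within low-kind and 0.61 within high-kind runs. Restricted to means of 10 TPM or more, 8 members of 34 were higher and 7 lower, beside 14.2% and 21% of all such genes.

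The direction of these counts rested on the runs of cells. Among low-kind cells, 6 members were at least 1.5-fold higher and 18 lower in old cells, beside 23.8% and 34.5% of all genes, and within the high kind 9 were higher and 7 lower, beside 21.9% and 32.8%. Of the 20 members past 1.5-fold over all cells, 14 had the same sign in both kinds (6 higher and 8 lower in old cells). These are 14.3% and 19.0% of the 42 measured members, beside 9.63% and 20% of all genes that met the same condition in each direction. Young cells 1 to 39 held the highest member sum of any run, 4279.9 ± 1876 TPM, and the neighbouring young cells 40 to 54 the lowest, 1088 ± 744 TPM. Without cells 1 to 39, 21 members were higher and 4 lower in old cells, beside 22.6% and 23.1% of all genes. The number higher in old cells was 5 without cells 40 to 54 (15.6% of all genes), 3 without cells 55 to 86 (17.6%) and 3 without cells 159 to 190 (20.7%). Without the 11 cells with macrophage markers at 100 TPM or above, 6 members in place of 9 were at least 1.5-fold higher in old cells and 11 lower, as over all cells, beside 17.2% and 25.6% of all genes, and the log2 ratios of Pgk1, Eno1 and Pcx were 0.43, 0.56 and 0.57, under that size.

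**Figure D2:**
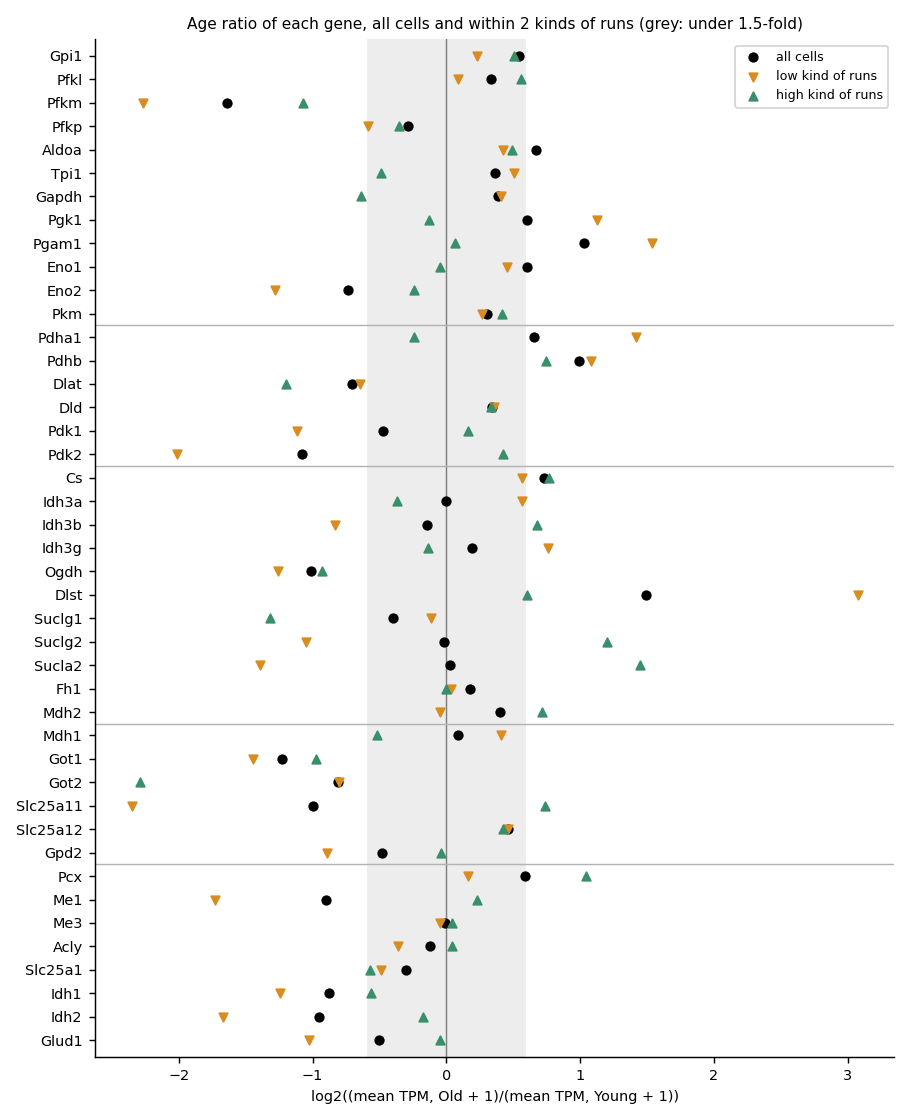
Log2 ratio of mean TPM (1 added to each mean), old over young, for each of the 43 genes over all cells (circles), within the low kind of runs (downward triangles) and within the high kind (upward triangles); the grey band marks differences under 1.5-fold. Pdhb and Dlst lie right of the band and Ogdh, Pfkm, Dlat, Got1 and Got2 left of it in all 3 sets of cells. Slc25a11, Pdk2 and Sucla2, among others, lie on opposite sides of 0 in the 2 kinds.

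Glycolysis held the highest and some of the lowest members. Summed over its 12 genes, a cell had 1209 ± 1310.0 TPM in old and 809.9 ± 714 TPM in young cells, a log2 ratio of the means of 0.58 with 0.51 within the low and 0.20 within the high kind. Aldoa, Pgk1, Pgam1 and Eno1, in the lower part of the pathway from aldolase on, were at least 1.5-fold higher in old cells, and Pfkm and Eno2 at least 1.5-fold lower. Within the high kind no glycolytic gene reached 1.5-fold higher, and Gapdh and Pfkm were lower by that size.

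Phosphofructokinase, the committed step, was a weak step of glycolysis by transcript level, lower than every other step except the uncertain Gapdh row described below. Its 3 genes summed to 9.19 ± 22.5 TPM in old and 13.5 ± 31.9 TPM in young cells, and at least 1 of them was detected in 32 of 69 old and 62 of 138 young cells. The muscle-type Pfkm had a median of 0 TPM at both ages and a highest value of 22.3 TPM in old cells, against 211 TPM in young cells, with means of 1.38 ± 3.97 TPM in old cells and 6.42 ± 23.4 TPM in young cells, a log2 ratio of -1.64. The lower mean came with lower values in the cells that had the gene, 5.48 TPM at the median of 12 old cells and 12.3 TPM of 29 young cells, while the share of cells was 17.4% (interval 9.32 to 28.4%) in old and 21.0% (14.5 to 28.8%) in young cells. The ratio of Pfkm was -2.27 within low-kind and -1.07 within high-kind runs, and between -2.03 and -1.24 as each run was left out in turn. The liver-type Pfkl averaged 5.89 ± 19.7 TPM in old cells and 4.48 ± 17.7 TPM in young cells (log2 ratio 0.33) and the platelet-type Pfkp 1.92 ± 9.62 TPM in old cells and 2.56 ± 11.8 TPM in young cells (-0.29). Pfkl lay at 64.1% of the summed phosphofructokinase mean in old cells, against 33.2% in young cells, and Pfkm at 15.1% and 47.7%. Across runs the share of Pfkl ranged from 7.22 to 82.3%. Of 207 cells, 113 had none of the 3 genes at 1 TPM or above and only 2 had all 3. The 94 cells with any of them mostly showed 1 isoform, Pfkl alone in 11 old and 23 young cells, Pfkm alone in 7 and 21 and Pfkp alone in 5 and 5.

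Aldoa, which splits the phosphofructokinase product into triose phosphates, was the most abundant member. It had 0.998, 330.4 and 3073 TPM at the lowest, median and highest in old cells, against 0, 212 and 3016 TPM in young cells, and means of 525 ± 619.7 TPM in old cells and 330.0 ± 431 TPM in young cells. Its gene (chr7:126795234-126800994, GRCm38) had a log2 ratio of 0.67, 0.42 within low-kind and 0.49 within high-kind runs. The run means were 309.9, 709, 264 and 623 TPM in the old runs in the order of their cell numbers, against 628, 228, 153 and 245 TPM in the young runs. The 2 higher old runs and the highest young run are of the low kind, and the ratio lay between 0.15 and 1.30 as each run was left out. Upstream of it, Gpi1, glucose phosphate isomerase, averaged 50.3 ± 96.3 TPM in old cells and 34.2 ± 72.1 TPM in young cells (log2 ratio 0.54) and was detected in 60.9% of old and 54.3% of young cells. Tpi1, which interconverts the triose phosphates, averaged 121 ± 216 TPM in old cells and 93.8 ± 181 TPM in young cells, a log2 ratio of 0.36 that was 0.50 within low-kind and -0.49 within high-kind runs.

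Gapdh, which oxidises glyceraldehyde phosphate and makes the NADH of glycolysis, had a far lower row than its neighbours in the pathway. It had 6.23 TPM at the median and 65.4 TPM at the highest in old cells, against 5.07 and 45.7 TPM in young cells. The means were 10.9 ± 14.6 TPM in old cells and 8.06 ± 9.29 TPM in young cells, far below the Aldoa and Tpi1 means, although the gene was detected in 78.3% of old and 85.5% of young cells. The mouse genome holds many processed pseudogenes of Gapdh, and in GENCODE M21 79 other genes matched its coding sequence at 95% identity or more over at least 200 bases. Of these, 74 had a row in the expression table, and together those rows averaged 44.4 TPM in old and 33.4 TPM in young cells, 80.5% of the sum of gene and copies. Pseudogene Gm5559 alone stood above Gapdh itself, at 18.4 TPM in old and 12.3 TPM in young cells. The sources used here do not say how reads that fit several genes were assigned, so the level of Gapdh is uncertain and its summed value, 55.3 TPM in old and 41.4 TPM in young cells, is given beside it. The log2 ratio was 0.39 for the row and 0.41 for the sum.

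The sequences show how little separates these rows. The 90 bases below are coding bases 400 to 489 of Gapdh in its exon 4 (chr6:125162951-125163040, minus strand, GRCm38) and the matching bases of Gm5559 (chr5:95862035-95862124, plus strand), Gm12033 (chr11:20335603-20335692, minus strand) and Gm13394 (chr2:28934199-28934288, minus strand), 5′ to 3′ on the strand of each gene, from the GENCODE M21 transcripts. Capitals mark a base that differs from Gapdh.
Gapdh: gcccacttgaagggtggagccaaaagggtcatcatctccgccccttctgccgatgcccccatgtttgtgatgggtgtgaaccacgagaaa
Gm5559: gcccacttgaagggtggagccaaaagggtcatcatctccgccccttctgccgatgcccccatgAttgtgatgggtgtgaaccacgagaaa
Gm12033: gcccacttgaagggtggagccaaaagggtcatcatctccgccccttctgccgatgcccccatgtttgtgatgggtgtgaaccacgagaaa
Gm13394: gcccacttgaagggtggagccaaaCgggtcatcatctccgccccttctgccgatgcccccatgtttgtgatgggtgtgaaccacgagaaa
A read that falls in these bases can differ between Gapdh and Gm5559 or Gm13394 at 1 base only, and between Gapdh and Gm12033 at none.

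Pgk1, phosphoglycerate kinase, which makes the earlier ATP of glycolysis, averaged 110.1 ± 213 TPM in old cells and 72.1 ± 128 TPM in young cells, with 16.7 TPM at the median and 1338 TPM at the highest in old cells, against 5.03 and 590.2 TPM in young cells. Its log2 ratio of 0.60 was 1.13 within low-kind and -0.13 within high-kind runs, and between -0.12 and 1.05 as each run was left out, the lowest without cells 159 to 190. Cell 162, the old cell with macrophage markers above 100 TPM, had the highest value of the old cells and 17.6% of their total, and without it the ratio was 0.35, under 1.5-fold. Pgk1 was detected in 72.5% of old and 59.4% of young cells, and rows of its 3 pseudogenes with near-identical sequence added 10.1 TPM in old and 7.02 TPM in young cells.

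Pgam1, phosphoglycerate mutase, averaged 99.5 ± 180.5 TPM in old cells and 48.1 ± 76.1 TPM in young cells, a log2 ratio of 1.03. Its median was not higher in old cells, 7.47 TPM against 11.5 TPM in young cells, and its highest values were 796 and 488 TPM. The ratio was 1.54 within low-kind and 0.06 within high-kind runs. Pseudogene Pgam1-ps2 has the same coding sequence as Pgam1 along its whole length, and its row averaged 23.5 TPM in old and 11.4 TPM in young cells. The opening 90 coding bases are shown for the gene (exon 1, chr19:41912048-41912137, plus strand, GRCm38) and the pseudogene (chr7:27470446-27470535, minus strand), where no capital means no difference.
Pgam1: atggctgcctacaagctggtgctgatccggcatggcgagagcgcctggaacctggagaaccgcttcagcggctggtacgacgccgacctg
Pgam1-ps2: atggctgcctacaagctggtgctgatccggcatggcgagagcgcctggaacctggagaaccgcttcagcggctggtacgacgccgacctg
With the pseudogene added, the sum was 123 TPM in old and 59.6 TPM in young cells, with a log2 ratio of 1.03.

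**Figure D3:**
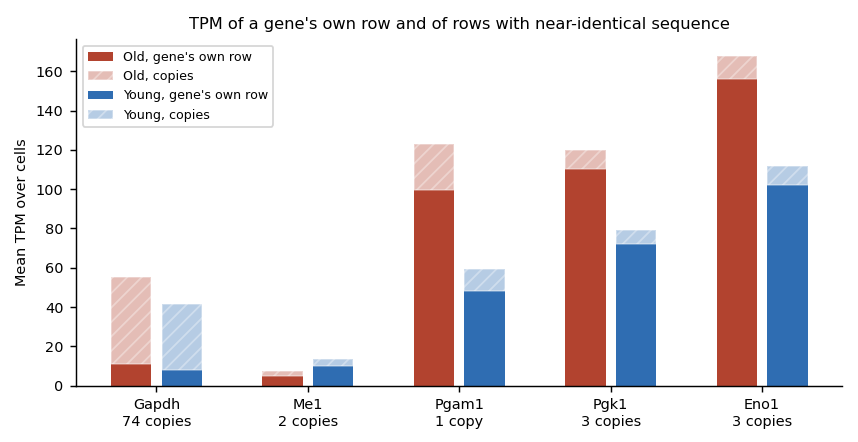
Mean TPM over cells of the gene's own row (solid) and of rows with near-identical sequence (hatched) for the 5 members with the largest share in copies, old cells left and young cells right in each pair. For Gapdh the hatched part is larger than the solid one at both ages, and for Eno1, Pgk1, Pgam1 and Me1 it is smaller.

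Enolase was carried by Eno1, the widely expressed form. It averaged 156 ± 348 TPM in old cells and 102 ± 164 TPM in young cells, with 7.09 TPM at the median and 2387 TPM at the highest in old cells, against 30.8 and 789 TPM in young cells. The mean was higher in old cells and the median lower: cell 171 alone held 22.2% of the old total, and the log2 ratio of 0.60 was 0.26 without it. The ratio was 0.46 within low-kind and -0.05 within high-kind runs, and -0.26 without cells 159 to 190. Eno2, the form of neurons and endocrine cells, averaged 5.48 ± 17.1 TPM in old cells and 9.81 ± 50.4 TPM in young cells, a log2 ratio of -0.74. Young cell 38 held 41.5% of the young Eno2 total, and without it the ratio was -0.07. Eno1 made up 96.6% of enolase TPM in old and 91.3% in young cells and was the higher form in all 8 runs. Its rows of near-identical sequence (Gm4735, Gm5855 and Eno1b) added 11.9 TPM in old and 9.67 TPM in young cells, and with them the ratio was 0.58, just under 1.5-fold. The window of Eno1 exon 8 (chr4:150246570-150246659, plus strand, GRCm38) and the same bases of Gm4735 (chr2:80837808-80837897, plus strand) differ by 1 base, in capitals.
Eno1: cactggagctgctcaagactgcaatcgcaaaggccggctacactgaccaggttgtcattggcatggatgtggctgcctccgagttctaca
Gm4735: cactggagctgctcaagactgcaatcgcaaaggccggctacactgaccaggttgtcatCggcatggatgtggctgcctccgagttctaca
Pkm, at the end of the pathway, averaged 121 ± 140.5 TPM in old cells and 97.9 ± 102 TPM in young cells, a log2 ratio of 0.31 that was 0.27 within low-kind and 0.42 within high-kind runs and stayed under 1.5-fold as each run was left out.

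The pyruvate dehydrogenase complex turns pyruvate into acetyl-CoA. Its subunits differed in level, and Pdhb and Pdha1, the beta and alpha chains of the decarboxylase E1, were at least 1.5-fold higher in old cells, while Dlat, the acetyltransferase E2, and Pdk2, a kinase that switches the complex off, were at least 1.5-fold lower. The 6 genes summed to 213 ± 333 TPM in old and 138 ± 181 TPM in young cells.

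Pdhb (chr14:8165991-8173303, GRCm38) was higher in old cells, and it and Ogdh were the only members past 1.5-fold in the same direction under each of the 19 alternative settings and subsets of cells tried. The filter settings among these cannot change the ratio of a single gene, and adding copies cannot change that of Ogdh, which had none. Pdhb had 10.2 TPM at the median and 1573 TPM at the highest in old cells, against 6.52 and 814 TPM in young cells, with means of 117 ± 237 TPM in old cells and 58.6 ± 124 TPM in young cells and a log2 ratio of 0.99. The share of cells with the gene was the same, 65.2% of old (interval 52.8 to 76.3%) and 65.2% of young cells (56.6 to 73.1%). The level in the cells that had it was not, with a median of 124 TPM in 45 old cells, against 29.7 TPM in 90 young cells. The run means were 95.4, 131, 90.6 and 148 TPM in the old runs and 87.0, 0.429, 44.6 and 62.6 TPM in the young runs, so that every old run lay above every young run. No other member had run means that did not overlap between the ages, a pattern that 0.452% of all genes showed in this direction and 1.56% in the other. The lowest old and the highest young run mean were close to each other. The ranges of single cells overlapped from 0 TPM up to the highest young value, 814 TPM. The ratio was 1.08 within low-kind and 0.74 within high-kind runs, between 0.83 and 1.29 as each run was left out, and 0.84 without the highest cell of each age.

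Pdha1 averaged 44.0 ± 113 TPM in old cells and 27.5 ± 94.3 TPM in young cells, a log2 ratio of 0.66, and was detected in 66.7% of old (interval 54.3 to 77.6%) and 50.7% of young cells (42.1 to 59.3%). Its ratio was 1.42 within low-kind and -0.24 within high-kind runs, so its direction followed the kind of run. Dlat averaged 5.03 ± 22.0 TPM in old cells and 8.85 ± 24.5 TPM in young cells (log2 ratio -0.71, -0.64 within low-kind and -1.20 within high-kind runs), and old cell 171 held 50.5% of its old total. Dlat was detected in 23.2% of old and 34.1% of young cells. Dld, the dehydrogenase E3 that this complex shares with 2-oxoglutarate dehydrogenase, averaged 42.9 ± 106 TPM in old cells and 33.6 ± 71.3 TPM in young cells, with a log2 ratio of 0.34 and with 0.36 within low-kind and 0.33 within high-kind runs. Both E1 chains were detected together in 42.0% of old (interval 30.2 to 54.5%) and 33.3% of young cells (25.5 to 41.9%), and all 4 genes of the complex in 8 old and 12 young cells.

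The kinases were low. Pdk2 averaged 3.07 ± 15.9 TPM in old cells and 7.62 ± 49.0 TPM in young cells and was detected in 13.0% of old and 12.3% of young cells, with 1 cell holding 56.4% of the old and 1 cell 51.0% of the young total. Its log2 ratio was -1.08 over all cells, -2.01 within low-kind and 0.43 within high-kind runs, and 0.76 without young cells 1 to 39. Pdk1 averaged 0.763 ± 2.49 TPM in old cells and 1.44 ± 7.82 TPM in young cells in 14.5% of old and 10.1% of young cells, a log2 ratio of -0.47. No Pdk1 or Pdk2 was detected in 163 of 207 cells.

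In the citrate cycle the most abundant genes were Mdh2, Fh1 and Suclg1 and the least abundant Suclg2, Dlst, Cs and Ogdh. The 11 genes summed to 839 ± 699 TPM in old and 749.8 ± 651 TPM in young cells. Cs and Dlst were at least 1.5-fold higher in old cells and Ogdh at least 1.5-fold lower, and the other 8 lay within 1.5-fold. Without young cells 1 to 39, whose mean for these genes was the highest of any run, the median log2 ratio was 1.07.

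Mdh2, which makes oxaloacetate in the mitochondria, had 0.583, 216 and 1412 TPM at the lowest, median and highest in old cells, against 0, 139 and 1754 TPM in young cells. The means were 337 ± 337 TPM in old cells and 254 ± 339 TPM in young cells, a log2 ratio of 0.40 with -0.04 within low-kind and 0.71 within high-kind runs. Old cells had the higher median, and the young runs spread more, from 62.5 to 541 TPM, against 244 to 409 TPM in the old runs. Fh1, fumarate hydratase, averaged 122 ± 195 TPM in old cells and 108 ± 188 TPM in young cells, and its log2 ratio was 0.18, with 0.03 within low-kind and 0.00072 within high-kind runs. Cs, citrate synthase, which joins acetyl-CoA to oxaloacetate, averaged 29.8 ± 83.6 TPM in old cells and 17.6 ± 52.1 TPM in young cells, with 0.463 TPM at the median and 428 TPM at the highest in old cells, against 0.245 and 426 TPM in young cells. Its log2 ratio was 0.73, 0.56 within low-kind and 0.77 within high-kind runs, and between 0.21 and 1.13 as each run was left out. The old runs of Cs ranged from 0.0283 to 40.7 TPM and the young runs from 2.75 to 29.0 TPM, so the ages overlapped.

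NAD-dependent isocitrate dehydrogenase is built from the products of Idh3a (catalytic), Idh3b and Idh3g. Idh3a averaged 37.3 ± 80.9 TPM in old cells and 37.3 ± 79.2 TPM in young cells, Idh3b 54.9 ± 133 TPM in old cells and 60.8 ± 159 TPM in young cells and Idh3g 69.1 ± 131 TPM in old cells and 60.4 ± 112 TPM in young cells. Their log2 ratios were -0.0015, -0.14 and 0.19, none of them at 1.5-fold. Over all cells the catalytic subunit was the lowest of the set at both ages, 23.1% of the summed mean in old and 23.5% in young cells. All 3 were detected together in 15 of 69 old and 27 of 138 young cells. The runs disagreed on the order of the subunits. Idh3a was the lowest in 4 of 8 runs and ranged from 13.4 to 38.4% of the sum, with Idh3b at 9.20 to 68.3% of the sum and Idh3g at 10.3 to 54.9%.

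Ogdh and Dlst, which encode the E1 and E2 of the same 2-oxoglutarate dehydrogenase complex, differed in opposite directions. Ogdh (chr11:6291597-6359094, GRCm38) had 5.01 TPM at the median and 100.5 TPM at the highest in old cells, against 8.58 and 413 TPM in young cells, with means of 13.7 ± 21.2 TPM in old cells and 28.7 ± 55.5 TPM in young cells and a log2 ratio of -1.01. The run means were 10.8, 14.2, 12.0 and 21.2 TPM in the old runs and 44.5, 23.6, 16.8 and 25.5 TPM in the young runs. Of the old runs, only cells 200 to 207 reached into the young range. The ratio was -1.26 within low-kind and -0.93 within high-kind runs and between -1.18 and -0.67 as each run was left out. Ogdh was detected in 69.6% of old and 76.8% of young cells.

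Dlst had a median of 0 TPM and a highest value of 784 TPM in old cells, against 0.518 and 323 TPM in young cells, and means of 29.8 ± 110.1 TPM in old cells and 9.92 ± 34.0 TPM in young cells. Its log2 ratio of 1.49 was the most positive of the members, yet the gene was detected in fewer old cells, 33.3% against 44.2% of young cells. Cell 202 held 38.2% of the old total, and without it the ratio was 0.85. The old run means spread widely, at 1.96, 17.3, 66.8 and 107 TPM, against 3.52, 2.72, 16.2 and 12.9 TPM in the young runs, and the difference of the mean log2 values over cells was 0.11. All 3 genes of the complex (with Dld) were detected together in 15.9% of old and 20.3% of young cells.

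**Figure D4:**
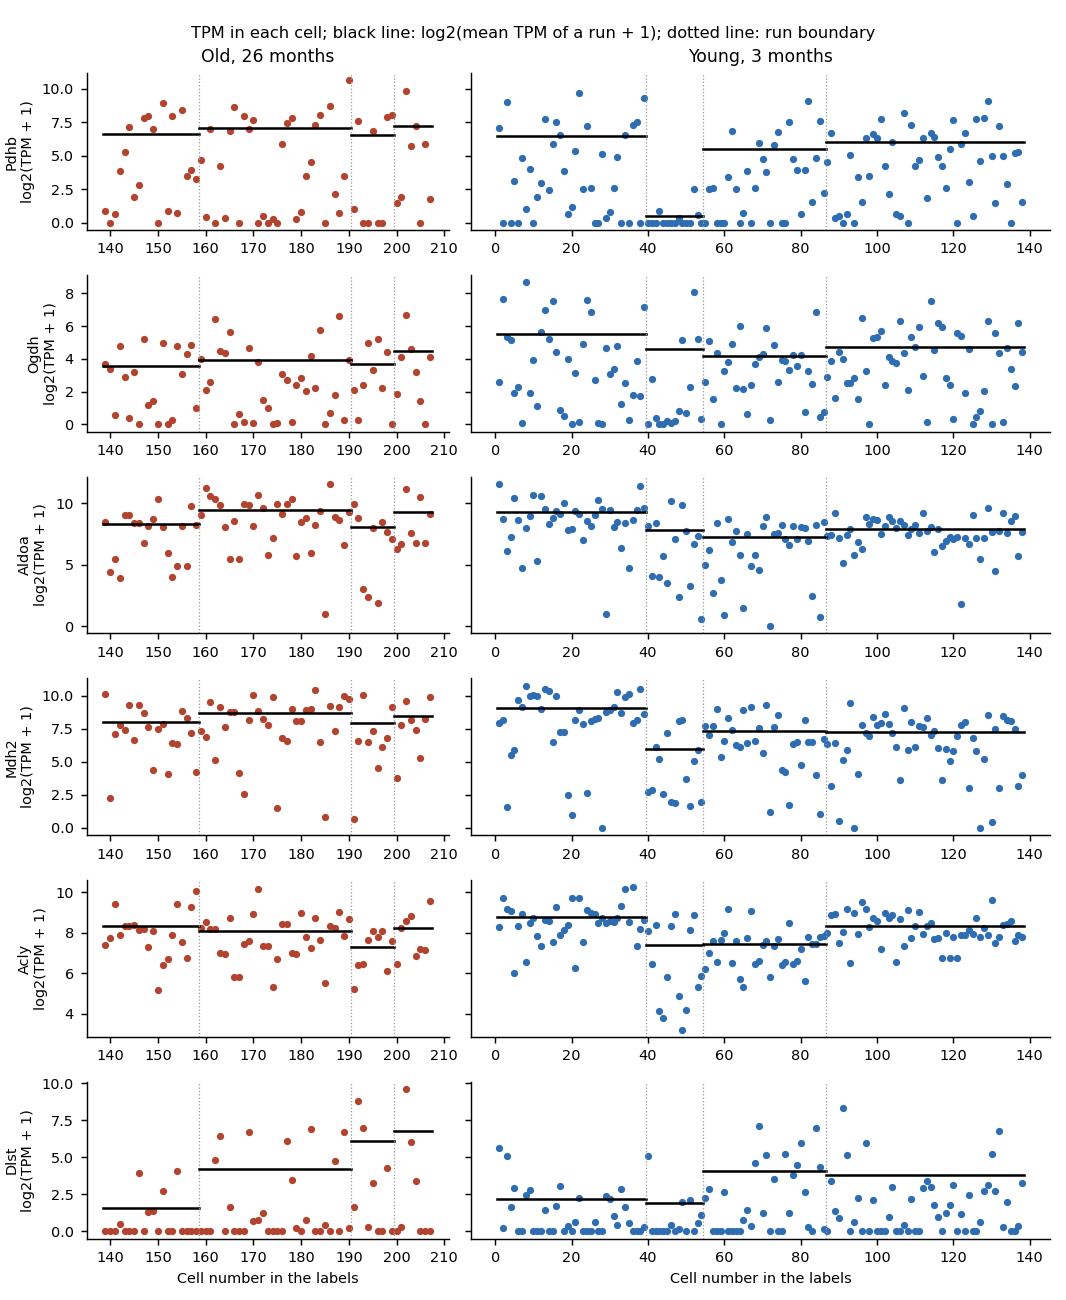
TPM of 6 genes in each cell as log2(TPM + 1), against the cell number in the labels, old cells left and young cells right; dotted lines are run boundaries and black lines the log2 of the run mean plus 1. The Pdhb lines of the old runs lie above those of the young runs, the Ogdh lines mostly below, and young cells 40 to 54 have low lines for Pdhb and Mdh2.

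Succinyl-CoA ligase pairs the alpha subunit Suclg1 with a beta subunit that sets the nucleotide, Sucla2 for ATP or Suclg2 for GTP. Suclg1 averaged 86.5 ± 177 TPM in old cells and 114 ± 193 TPM in young cells, a log2 ratio of -0.40 that was -0.11 within low-kind and -1.32 within high-kind runs. Sucla2 averaged 42.5 ± 99.9 TPM in old cells and 41.6 ± 93.8 TPM in young cells and Suclg2 16.1 ± 53.8 TPM in old cells and 16.4 ± 79.1 TPM in young cells, so Sucla2 held 72.5% of the beta subunit TPM in old and 71.8% in young cells. It was the higher form in 7 of 8 runs, all but young cells 40 to 54, where both forms were under 2 TPM. The log2 ratios of both were near 0 over all cells, 0.03 for Sucla2 and -0.02 for Suclg2. They had opposite signs in the kinds, Sucla2 with -1.40 within low-kind and 1.45 within high-kind runs and Suclg2 with -1.05 within low-kind and 1.20 within high-kind runs. Suclg1 and Sucla2 were detected together in 34.8% of old and 42.8% of young cells, and Suclg1 and Suclg2 in 26.1% and 20.3%.

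**Figure D5:**
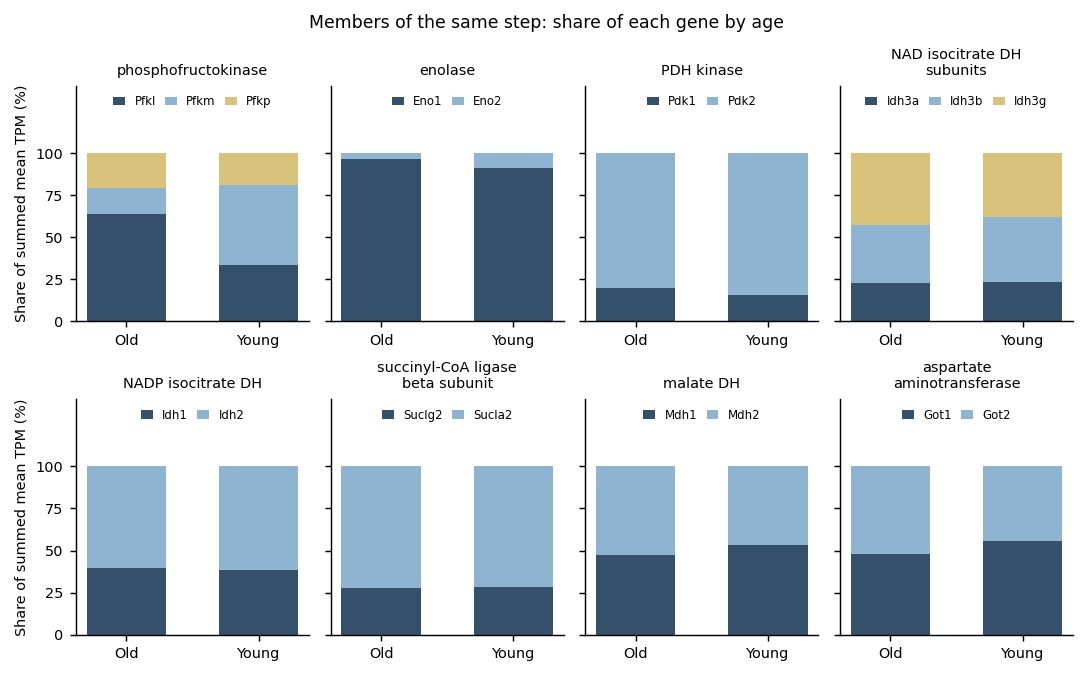
Share of the summed mean TPM of a step held by each of its genes, in percent, for 8 steps with more than 1 member, old cells left and young cells right in each panel. Pfkl is at 64.1% in old and 33.2% in young cells, and in the other panels no gene's share differs between the ages by as much.

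The malate-aspartate shuttle carries the electrons of cytosolic NADH into mitochondria as malate and also uses Mdh2, described above. Of its other genes and the glycerol phosphate dehydrogenase Gpd2, 3 were at least 1.5-fold lower in old cells, none was that much higher, and the median log2 ratio was -0.64, the lowest of the roles. Without young cells 1 to 39 that median was 0.16. Summed TPM of the 6 genes was 384 ± 434 in old and 420.1 ± 398 in young cells.

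Mdh1, the cytosolic malate dehydrogenase, held most of that sum. It had 134 TPM at the median and 2259 TPM at the highest in old cells, against 187 and 1449.6 TPM in young cells, and means of 305 ± 389.8 TPM in old cells and 287 ± 304 TPM in young cells (log2 ratio 0.09, 0.41 within low-kind and -0.52 within high-kind runs). Set beside its mitochondrial partner, Mdh1 made up 47.5% of malate dehydrogenase TPM in old and 53.0% in young cells. Within the high kind these shares were 44.0% and 65.0%, and within the low kind 49.0% and 41.2%. The run mean of Mdh1 was 31.9 TPM in old cells 191 to 199 and 35.9 TPM in young cells 40 to 54, and lay from 183 to 385 TPM in every other run.

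The aminotransferases lay far below Mdh1 and Mdh2 in mean TPM, as did the carriers Slc25a11 and Slc25a12 described next. Got1, the cytosolic aspartate aminotransferase, had 0 TPM at the median and 318 TPM at the highest in old cells, against 0.196 and 1148 TPM in young cells, with means of 15.4 ± 50.8 TPM in old cells and 37.4 ± 130.0 TPM in young cells and a log2 ratio of -1.23. Its ratio was -1.45 within low-kind and -0.98 within high-kind runs, and between -1.69 and -0.99 as each run was left out. Got2, the mitochondrial form, averaged 16.6 ± 52.3 TPM in old cells and 29.9 ± 86.0 TPM in young cells, with a log2 ratio of -0.81, -0.80 within low-kind and -2.29 within high-kind runs, and 0.04 without young cells 1 to 39. Got1 and Got2 were detected together in 41 of 207 cells, and neither in 84.

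Of the carriers, Slc25a11 exchanges malate for 2-oxoglutarate and Slc25a12 exports aspartate for glutamate. Slc25a11 averaged 17.2 ± 53.0 TPM in old cells and 35.3 ± 113 TPM in young cells, a log2 ratio of -0.99 that was -2.35 within low-kind and 0.73 within high-kind runs and 0.50 without young cells 1 to 39, where its mean was 94.8 TPM. Slc25a12 averaged 17.8 ± 50.1 TPM in old cells and 12.6 ± 41.1 TPM in young cells, with a log2 ratio of 0.46, and was the higher in old cells of both kinds by less than 1.5-fold, 0.46 within low-kind and 0.43 within high-kind runs. Slc25a13, the other aspartate-glutamate carrier and no member, was at 0.0221 TPM in old and 0.817 TPM in young cells, so Slc25a12 was the more abundant of these carriers at both ages. Gpd2, which feeds electrons from cytosolic glycerol phosphate to the respiratory chain, averaged 12.2 ± 28.6 TPM in old cells and 17.5 ± 34.3 TPM in young cells in 43.5% of old and 52.9% of young cells, a log2 ratio of -0.48. Gpd1, its cytosolic partner and no member, averaged 2.64 ± 10.1 TPM in old and 2.42 ± 9.58 TPM in young cells. All 6 malate-aspartate genes were detected together in 1 of 69 old and 7 of 138 young cells.

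Among the 8 genes of anaplerosis and export, Pcx was at least 1.5-fold higher in old cells and Me1, Idh1 and Idh2 at least 1.5-fold lower. Pcx, pyruvate carboxylase, which makes oxaloacetate from pyruvate, had a median of 0.270 TPM and a highest value of 82.7 TPM in old cells, against 0.182 and 96.1 TPM in young cells. The means were 8.99 ± 18.1 TPM in old cells and 5.64 ± 14.1 TPM in young cells, a log2 ratio of 0.59, just past 1.5-fold, with 0.17 within low-kind and 1.04 within high-kind runs and between 0.31 and 1.08 as each run was left out. Every run mean of Pcx was under 15 TPM, which puts the gene far below the Acly mean.

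Acly (means of 274 ± 217 TPM in old cells and 299 ± 214 TPM in young cells) had a log2 ratio of -0.13, and its run means spread only 2.75-fold, from 157 to 319 TPM in the old and 166 to 431 TPM in the young runs. Slc25a1, which carries citrate out of the mitochondria to Acly, averaged 31.2 ± 50.8 TPM in old cells and 38.8 ± 114 TPM in young cells in 59.4% of old and 55.8% of young cells, a log2 ratio of -0.30. The median of Slc25a1 was 3.23 TPM in old and 2.66 TPM in young cells.

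The NADPH-making enzymes of the citrate and malate cycles were lower in old cells by the mean. Idh1, the cytosolic NADP-dependent isocitrate dehydrogenase, had 0.180 TPM at the median and 401 TPM at the highest in old cells, against 1.23 and 1039 TPM in young cells, with means of 19.4 ± 60.2 TPM in old cells and 36.5 ± 108 TPM in young cells and a log2 ratio of -0.88. Idh2, its mitochondrial counterpart, had 1.07 TPM at the median and 433 TPM at the highest in old cells, against 7.16 and 1051 TPM in young cells, with means of 29.5 ± 76.3 TPM in old cells and 57.9 ± 157 TPM in young cells and a log2 ratio of -0.95. Fewer old cells had either gene at 1 TPM or above, 39.1% (interval 27.6 to 51.6%) against 50.7% of young cells (42.1 to 59.3%) for Idh1, and 52.2% (39.8 to 64.4%) against 63.0% (54.4 to 71.1%) for Idh2, with intervals that overlap. Both were lower in old cells of both kinds, Idh1 with -1.24 within low-kind and -0.57 within high-kind runs and Idh2 with -1.67 within low-kind and -0.18 within high-kind runs, and the ratio of neither changed sign as any run was left out. Idh2 held 60.4% of their summed TPM in old and 61.3% in young cells.

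Me1, the cytosolic malic enzyme, averaged 4.96 ± 18.4 TPM in old cells and 10.1 ± 54.5 TPM in young cells and was detected in 20.3% of old and 15.2% of young cells. Its log2 ratio was -0.90 over all cells, -1.73 within low-kind and 0.23 within high-kind runs, and 0.59 without young cells 1 to 39, and cell 23 of that run held 40.4% of the young total. Rows of near-identical sequence made up 28.5% of the sum of Me1 and its copies, nearly all of it in Gm7329, which matches Me1 over 210 bases. Me3, a mitochondrial malic enzyme, reached 1 TPM in 1 old cell and 2 young cells and averaged 0.0377 and 0.0475 TPM, so it was the only member under 1 TPM at both ages. Glud1, glutamate dehydrogenase, which links glutamate to 2-oxoglutarate, averaged 27.0 ± 81.8 TPM in old cells and 38.7 ± 133 TPM in young cells, a log2 ratio of -0.50 with -1.03 within low-kind and -0.05 within high-kind runs.

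Where a step has several genes, the gene with the highest mean was the same at both ages in 5 of 9 steps: enolase (Eno1), pyruvate dehydrogenase kinase (Pdk2), NADP-dependent isocitrate dehydrogenase (Idh2), the succinyl-CoA ligase beta subunit (Sucla2) and malic enzyme (Me1). It differed for phosphofructokinase, the NAD-dependent isocitrate dehydrogenase subunits, malate dehydrogenase and aspartate aminotransferase. Mdh1 and Mdh2 each led in 4 of the 8 runs, and so did Got1 and Got2. Within the low kind 7 steps had the same leading gene at both ages, and within the high kind 7.

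Members did not share their highest and lowest runs evenly. Of the 43 genes, 18 had their highest run mean in young cells 1 to 39 and 19 their lowest in young cells 40 to 54, and 41 were lower in cells 40 to 54 than in cells 1 to 39. The median number of members detected in a cell was 23 in cells 1 to 39 and 12 in cells 40 to 54, where the median number of detected genes was 3944 and 2320. Among the old runs, cells 191 to 199 had a mean member sum of 1344 ± 674 TPM, against 2601 to 3671 TPM in the others, and 31 of 43 members were lower there than in cells 139 to 158. Such counts by run were not made over all genes, so they cannot be read as particular to the members. Over all cells the member sum had a log2 ratio of 0.22, old over young, and 0.10 within the low and 0.08 within the high kind.

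The glycolysis and citrate cycle sums of a cell went together only loosely. Spearman's rho was 0.44 over 69 old and 0.42 over 138 young cells, points that share a library total and a run, and within runs it ranged from -0.05 to 0.93. The member sum was lower in cells with more insulin, with a rho of -0.38 in old and -0.55 in young cells. Both are parts of the same fixed total.

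The genes next to the members in the same pathways were taken from a list of 54, of which 37 had a mean of 1 TPM or more at either age. Of these, 5 were at least 1.5-fold higher in old cells and 14 lower (13.5% and 37.8%, beside 16.8% and 26.4% of all genes), with a median log2 ratio of -0.17. Hexokinase 1 (Hk1) reached 1 TPM in 0 of 69 old and 0 of 138 young cells. A count of 0 allows a share of up to 4.35% of old and 2.17% of young cells (3 cells of each total) with the gene at that level, and sets no limit on cells that express it below that level. Lactate dehydrogenase A (Ldha) was detected in 6 of 69 old and 4 of 138 young cells, and its mean of 11.4 ± 91.9 TPM in old and 6.80 ± 63.1 TPM in young cells came from these few. Old cell 162, with the macrophage markers, held 96.8% of the old total and young cell 112, the highest of the young cells for the macrophage markers Cd68 and Lyz2, 77.2% of the young total. The monocarboxylate carrier Slc16a1 was detected in 0 of 69 old cells and 1 of 138 young cells.

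The mitochondrial pyruvate carrier, which stands between Pkm and the pyruvate dehydrogenase complex, has the subunits Mpc1 and Mpc2. Mpc1 averaged 53.1 ± 106 TPM in old cells and 104 ± 179 TPM in young cells, a log2 ratio of -0.95 with -1.01 within low-kind and -0.86 within high-kind runs, and Mpc2 averaged 23.5 ± 49.7 TPM in old cells and 27.5 ± 51.2 TPM in young cells (-0.22). Pdhx, which ties Dld to the pyruvate dehydrogenase core, averaged 11.4 ± 55.5 TPM in old cells and 4.49 ± 19.8 TPM in young cells (1.17) in 11.6% of old and 15.9% of young cells. In the citrate cycle, the flavoprotein of succinate dehydrogenase (Sdha) averaged 65.9 ± 103 TPM in old cells and 64.0 ± 108 TPM in young cells, a log2 ratio of 0.04, and both means were above those of Cs, Ogdh and Dlst. Mitochondrial phosphoenolpyruvate carboxykinase (Pck2) averaged 26.9 ± 56.2 TPM in old cells and 26.2 ± 82.0 TPM in young cells (0.04).

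Of the 20 neighbours with a mean of 10 TPM or more, 4 were at least 1.5-fold higher and 4 lower in old cells, beside 14.2% and 21% of all such genes. Higher were Glul, glutamine synthetase, at 53.3 ± 122 TPM in old cells and 20.8 ± 36.3 TPM in young cells (log2 ratio 1.32), Pgd of the pentose phosphate pathway at 15.9 ± 39.1 TPM in old cells and 6.51 ± 18.7 TPM in young cells (1.17), Pdhx and Ldha. The ratio of Ldha was 0.67 over all cells, -2.51 without cell 162 and 0.42 without the 11 cells with macrophage markers. Lower were Mpc1, the cytosolic aconitase Aco1 at 3.88 ± 13.9 TPM in old cells and 10.1 ± 36.3 TPM in young cells (-1.18), Bpgm, bisphosphoglycerate mutase, at 3.34 ± 9.90 TPM in old cells and 12.1 ± 39.3 TPM in young cells (-1.60), and Hmgcs1 of sterol synthesis at 11.0 ± 24.5 TPM in old cells and 31.5 ± 78.7 TPM in young cells (-1.43). The ratio of Glul was 2.67 within low-kind and 0.17 within high-kind runs, and that of Ldha 2.02 within low-kind and -2.42 within high-kind runs.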

How the data were processed

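Single islet cells of male mice (69 old, 138 young) were caught on a Fluidigm C1 chip, with SMARTer cDNA and Nextera XT libraries, per the labels' protocols. The authors deposited 1 table of TPM values, and 0 of its columns were left unused. The submitters' processing notes name CASAVA 1.8.2, FastQC and the genome builds GRCm38 and mm10. Not given in the sources used here are the aligner, the program that made the TPM, its annotation, strand handling and the treatment of reads that fit several genes. TPM hold no depth, so the precision of a single value is unknown, and every gain in an abundant transcript lowers the others.

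Of 44448 rows (NCBI Gene numbers), 39725 matched a symbol in a RefSeq table of GRCm38.p6, among them all 43 members and 54 neighbours. The members and lists were chosen with earlier results of these data known. Groups are the ages given by the labels, no cell was left out, no 2 were identical, and no doublet caller was run. Values are means over cells, the log2 ratio is that of (mean TPM of old cells + 1) over (mean TPM of young cells + 1), and 1.5-fold is a size, not a test. All members are accounted for. Neighbours are named if fixed by name or, with a mean of 10 TPM or more at either age, if they differ 1.5-fold. Runs came from least-squares change points within each age on 4 measures (Malat1, detected genes, and the mitochondrial TPM in coding genes and in rRNA and tRNA), with at least 8 cells a run and a penalty multiplier of 2. The 2 kinds were split at the widest gap of mitochondrial rRNA and tRNA, and runs and kinds were defined with the data in view. Near-identical copies are genes whose GENCODE M21 transcripts matched a member's coding sequence by blastn 2.17.0 at 95% identity or more over at least 200 bases. Alternatives changed the pseudocount, filters, scale, total, detection threshold, runs and cells used. Simulated data were used to check the ratio and the search for runs. Python 3.11.15, numpy 2.4.6, pandas 2.3.3, scipy 1.17.1 and matplotlib 3.10.9 were used.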

Additional observations from a re-analysis of the deposited data

How the results depend on the processing

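The counts of 9 higher and 11 lower members depended on scale and cells. By the difference of mean log2(TPM+1), 4 were higher and 4 lower, and the leading gene of a step, taken from shares within each cell, was then the same at both ages in 8 steps in place of 5. The share of all genes past 1.5-fold was not taken on that scale, so the smaller counts cannot be read as particular to the members. With means of 10 TPM or more, 7 were lower. Lower members numbered 18 among low-kind and 7 among high-kind cells. Without cells 1 to 39, 21 were higher and 4 lower, and the medians were 1.07 for the citrate cycle, 0.16 for the NADH shuttles (reversed from -0.64) and 0.29 for anaplerosis and export. Higher members numbered 5 without cells 40 to 54, 3 without cells 55 to 86 and 3 without cells 159 to 190. The pyruvate dehydrogenase median of -0.06, over 6 genes, was -0.23 with 0.1 TPM added in place of 1, 0.66 with means of 10 TPM or more, -0.26 with insulin and mitochondrial genes left out of the total, -0.14 within the low and 0.33 within the high kind, 0.64 without cells 1 to 39, -0.16 without cells 40 to 54 and 0.12 without the highest cell of each gene. At TPM above 0, 32 members in place of 20 were detected in at least 50% of cells. With insulin and mitochondrial genes left out of the total, a setting that for run means was added after the data had been seen, 2 members in place of 1 had run means that did not overlap. That total moved the median of all genes by -0.0024. Of the 20 members past 1.5-fold, 12 kept their sign under all 19 alternatives and 8 did not. The filter settings among the 19 leave the ratio of each gene as it is, as do added copies for a gene without any. Reversed values were, by mean log2, -0.21 for Eno1 and 0.012 for Me1; in the high kind, -0.13 for Pgk1, -0.045 for Eno1, -0.24 for Pdha1, 0.43 for Pdk2, 0.73 for Slc25a11 and 0.23 for Me1; without cells 1 to 39, 0.15 for Eno2, 0.76 for Pdk2, 0.042 for Got2, 0.50 for Slc25a11 and 0.59 for Me1; and without cells 159 to 190, -0.12 for Pgk1 and -0.26 for Eno1. The cause was not tested in any of these. Adding the rows of near-identical copies, an alternative added after the data had been seen, left 8 higher and 11 lower. Without the 11 cells with macrophage markers, likewise added after the data had been seen, 6 were higher and 11 lower. The glycolysis median of 0.38 was -0.09 in the high kind and -0.03 without cells 159 to 190, and the citrate cycle median of 0.03 was 0.61 in the high kind. Without the 7 old cells with another hormone at 1000 TPM or above, 9 were higher and 11 lower. Shares of all genes were likewise not taken without these cells, with added copies, or for signs kept under all 19 alternatives. No paired analysis was possible because the labels give no replicate numbers or animals that the ages share.

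Each age is 1 sample of unknown animals, so no difference here has a replicate check. Runs hold 1 age each, and run and age cannot be told apart. Depth is unknown, 23 members had a median under 1 TPM, and in 16 members 1 cell held at least 25% of the old total (6 members for the young total). The old total is over 69 cells and the young total over 138, so these counts cannot be set against each other. No such counts were made over all genes.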
